A study of Mus musculus with 15 samples.

Results

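The nuclear-encoded subunits of the respiratory chain were followed through the first 3 postnatal weeks in Purkinje cells (PCs), the output neurons of the cerebellar cortex. The members were the protein-coding genes in the count files whose GENCODE M21 symbol begins with Nduf (assembly factors named Ndufaf excepted), Uqcr, Cox4, Cox5, Cox6, Cox7, Cox8 or Atp5, together with Sdha, Sdhb, Sdhc and Sdhd. This gave 85 of 38561 gene rows: 38 for complex I, 4 for complex II, 8 for complex III, 18 for complex IV and 17 for complex V. Of these, 81 had enough counts to be tested, and the other 4 (Cox7b2, Cox8b, Cox8c and Atp5g2) are described with their isoforms. PCs were laser-microdissected from mice given in the labels as strain C56/BL6 and in the methods as C57/BL6, on postnatal days 0 (P0), 4, 8, 14 and 21, with 3 libraries per time point and 15 in all. According to the methods, the mice were males, clusters of PCs were cut at P0, where single cells were hard to isolate, and individual cell bodies at the later ages, so that age and mode of capture cannot be told apart between P0 and P4. Each library was made from many cells collected together, and the methods call the 3 of an age biological replicates.

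The respiratory chain is the set of protein complexes in the inner mitochondrial membrane that turns the energy of food into ATP. Complex I (NADH dehydrogenase) and complex II (succinate dehydrogenase, which is also an enzyme of the citric acid cycle) pass electrons through complex III to complex IV (cytochrome c oxidase), which reduces oxygen, and complex V (ATP synthase) uses the resulting proton gradient. Most subunits are encoded in the nucleus, whereas a small core of complexes I, III, IV and V is encoded by mitochondrial DNA and complex II is wholly nuclear. PCs fire spontaneously, and neurons cover most of their demand for ATP by this route. Several subunits of complex IV exist as paralogous isoforms, a broadly expressed form and a form best known from particular tissues such as heart, skeletal muscle, lung or testis.

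Counts on genes ranged from 3409371 to 7814951 per library. Values are given as CPM, in which library sizes are corrected by the TMM factors of edgeR, and levels of different genes are compared only as RPKM, which is CPM per kilobase of exon. The share of reads tallied as matching no annotated feature was 24.1 to 29.8% at P0 and 16.7 to 23.4% later. The counting took only reads that lie wholly inside a feature, so this share can also hold reads from within genes. The summed level of 6 PC markers rose from 5340 ± 737 CPM at P0 to 42941 ± 5287 at P21 (mean ± SD, n = 3), and all 6 rose with day. Markers of other cells were present: 8 markers of Bergmann glia and astrocytes summed to 4829 ± 805 CPM at P0, 9403 ± 909 at P8 and 4477 ± 870 at P21, 5 oligodendrocyte markers to 24.1 ± 25.6 at P0 and 633 ± 219.9 at P21, 4 granule neuron markers to 279 ± 61.5 at P0, 621 ± 157 at P8, then 588 ± 319 at P14 and 321 ± 98.2 at P21, and 5 interneuron markers to 387 ± 75.6 at P0 (354 of it Sst) against 49.8 to 78.4 later. In such samples, fewer cells of a type and less RNA per cell cannot be told apart, and the part of these markers in the results below was not tested. Among the members, P4 replicate 2 lay above and P4 replicate 3 below their group, by a median of 0.31 and -0.31 on the log2 scale.

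Summed over all 85 members, the subunits stood at 31682 ± 1892 CPM at P0, 44867 ± 9593 at P4, then 46440.2 ± 5414 at P8, 46001 ± 1884 at P14 and 44497 ± 5128 at P21. As a share of all gene counts, without the TMM factors, they took 3.31 to 3.77% at P0 and 3.54 to 5.45% later. The shares in P21 replicates 1 to 3 were 3.85, 4.24 and 3.54%, which overlapped with those at P0. The TMM factors were 1.11 to 1.13 at P0 and 0.851 to 0.893 at P21. Of the 81 tested members, 66 had their lowest mean at P0, and 26 had their highest mean at P21, 21 at P8, 16 at P4, 16 at P14 and 2 at P0. These numbers were not counted over all genes. In TMM-scaled CPM the chain as a whole was therefore lowest at P0, with most of the difference already present at P4.

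**Figure D1:**
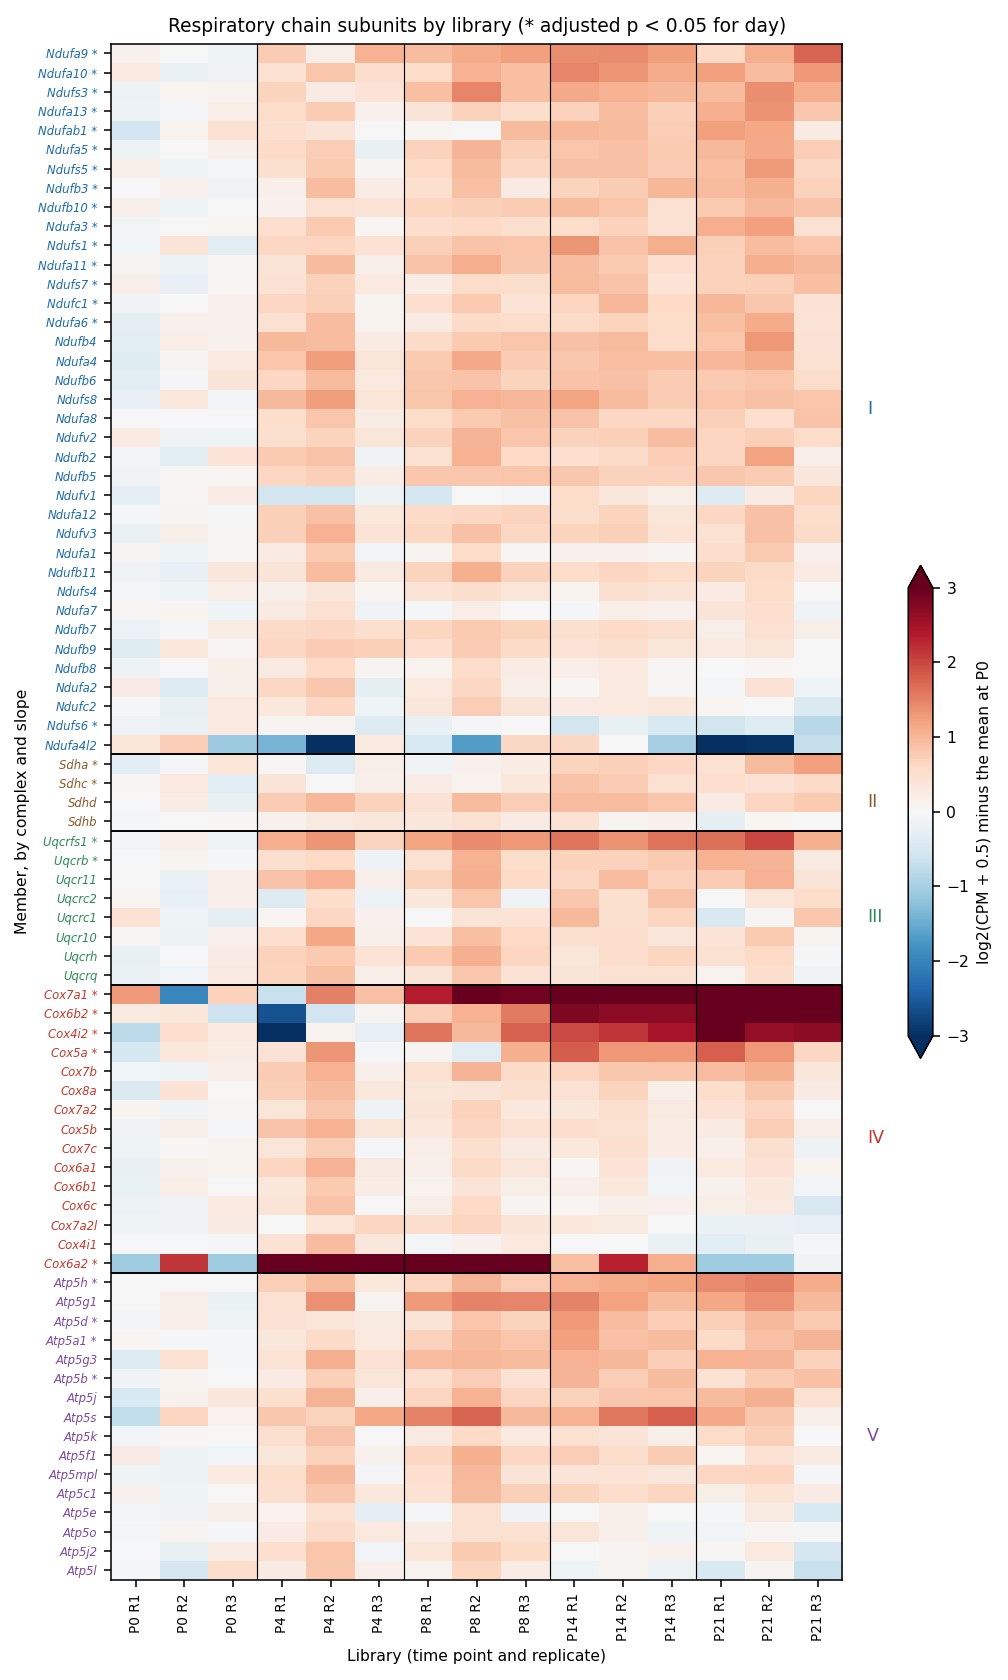
Level of 80 of the 81 tested members (rows, grouped by complex and ordered by slope within it) in each of the 15 libraries (columns), as log2(CPM + 0.5) minus the member's mean at P0. Colours are cut at 3 log2 units, and an asterisk marks an adjusted p below 0.05 on day. Most rows turn from pale at P0 to light red from P4 on. Cox4i2, Cox6b2 and Cox7a1 are red in every library from P8 on, and Cox6a2 is deepest red at P4 and P8. At levels near 0, some libraries of Cox7a1 and Cox6a2 are red at other time points too.

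The question of which subunits change over the 3 weeks was put to the trend on postnatal day, fitted over all 14293 genes with enough counts (edgeR quasi-likelihood test, adjusted p below 0.05). Of the 81 members, 28 rose, 2 fell and 51 did not pass, while 12.1% of all genes tested rose and 14.1% fell. At an unadjusted p below 0.05 the numbers were 37 and 4, against 16.6% and 20.1% of all genes. The median slope of the members was 0.024 log2 units per day, against -0.0077 over all genes. Tested for any pattern over the time points, 37 members changed, against a background of 19.3%. The split depended on the scaling. With libraries scaled by their total counts alone, 10 members rose and 7 fell (8.61% and 20.1% of all genes), and the median slope was 0.0067 against -0.025 over all genes. The distance of the members from all genes was 0.031 log2 units per day under both scalings. A change of scaling shifts all genes of a library alike, so this distance could hardly move. By limma-voom the distance was 0.0197. Without the P0 libraries, 7 members rose and 5 fell (10.2% and 11.0% of all genes), and the median slope of the members was 0.0049, beside -0.0056 over all genes, a distance of 0.0105. The 7 that rose were Ndufa10, Ndufa13, Sdha, Cox4i2, Cox6b2, Cox7a1 and Atp5h, all of them among the 28. With log2(day + 1) in place of day, 42 rose, where 13.0% of all genes did, and none fell.

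The median of every complex was higher at P4 than at P0, and the later courses of the medians varied. In complex I, 16 of 38 members rose and 1 fell, with a median slope of 0.026. In complex II 2 of 4 rose (median 0.023), in complex III 2 of 8 (0.019), in complex IV 4 of 15 rose and 1 fell (0.0038), and in complex V 4 of 16 rose (0.021). With total-count scaling the median slope of complex IV turned to -0.013, and those of the other complexes were between 0.0022 and 0.0093. Without the P0 libraries the medians of complexes IV and V were -0.0091 and -0.0044, that of complex III was 0.0031, and those of complexes I and II were 0.0089 and 0.0088. Relative to P0, the median member of complex I stood at 0.49 ± 0.27 log2 units at P4, then 0.65 ± 0.12 at P8, 0.64 ± 0.09 at P14 and 0.68 ± 0.19 at P21 (mean ± SD over 3 libraries). That of complex IV stood at 0.50 ± 0.37, 0.46 ± 0.15, 0.35 ± 0.14 and 0.34 ± 0.28. The highest mean lay at P21 for 17 of the 38 members of complex I and at P4 for 8 of the 15 of complex IV, which was not counted over all genes. Whether the complexes differ in slope was not tested, since members share libraries and are not replicates.

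**Figure D2:**
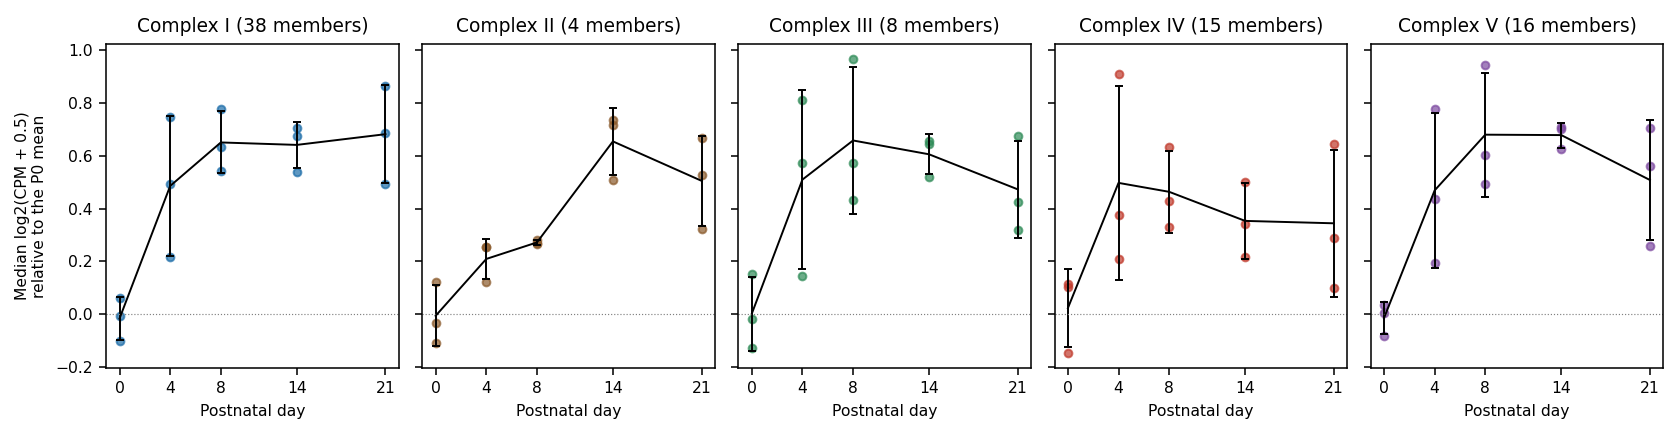
Median over the tested members of each complex of log2(CPM + 0.5) relative to the P0 mean (y axis) against postnatal day (x axis), one point per library, with the line joining means and bars of 1 SD over 3 libraries. All 5 complexes lie above their P0 level at P4, by 0.21 for complex II and 0.47 to 0.51 for the others, and complex II reaches 0.65 only at P14.

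From P0 to P4 the median difference of the members was 0.50 on the log2 scale, against 0.03 for all genes. Of the 81 fitted differences 75 were positive, where 7389 of all 14293 genes had a positive one. In 36 members every P4 library lay above every P0 library, and in none below. Over all genes these shares were 9.12% and 6.04%. The 36 were 19 of complex I, 2 of complex II, 3 of complex III, 5 of complex IV and 7 of complex V. Few single members passed the adjusted threshold: 3 were higher at P4 and none lower, where 1.74% of all genes were called higher and 0.231% lower. At an unadjusted p below 0.05, 46 members were higher and none lower (10.1% and 4.72% of all genes). DESeq2 called 15 members higher (4.48% of all genes) and limma-voom 7 (1.37%), but with total-count scaling in edgeR none was called and 36 had an unadjusted p below 0.05 (8.55% of all genes). The fitted difference between P0 and P4 was positive for 74 members under that scaling too, with a median of 0.39, where 6675 of all 14293 genes had a positive one. Without P4 replicate 3, the library with the lowest members in that group, 10 members were called. The share of all genes called in that fit was not counted, so the number shows only how the calls depend on that library. None was called in 8 of the 15 fits that left out 1 library, those without P0 replicate 1 or 3, P4 replicate 2, P8 replicate 2 or 3, or any of the 3 libraries of P14.

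The 3 called members belong to 3 complexes. Uqcrfs1, the Rieske iron-sulfur protein of complex III, measured 53.1, 64.9 and 51.1 CPM in the P0 libraries and 120.4, 141 and 89.4 at P4, so that the groups did not overlap. Its difference was 1.05 ± 0.25 on the log2 scale (adjusted p = 0.042, n = 3 per time point, edgeR). Sdhd, which anchors complex II in the membrane, measured 338, 398 and 289 CPM at P0 and 572, 675 and 546 at P4, a difference of 0.81 ± 0.19 (adjusted p = 0.035, edgeR). Ndufs8, an iron-sulfur subunit in the core of complex I, measured 196, 292 and 221 CPM at P0 and 456, 557 and 301 at P4, a difference of 0.89 ± 0.21 (adjusted p = 0.043, edgeR). In Ndufs8 the lowest P4 library, replicate 3, was only just above the highest P0 library. Between the same time points the summed PC markers went from 4549 to 6007 CPM at P0 to 10469 to 17387 at P4. The glial markers went from 4098 to 5692 up to 5401 to 9144, and the interneuron markers from 333 to 474 down to 22.8 to 88.5. Most of the interneuron sum at P0 was Sst, as given above. Of the 5 interneuron markers, 1 was called lower in this step and 2 had a positive difference. The share of reads matching no feature went from 24.1 to 29.8% down to 20.1 to 21.2%. The part of these in the step was not tested.

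No member was called in the later steps, where edgeR called 0.882% of all genes higher and 0.252% lower from P4 to P8, 1.29% and 1.38% from P8 to P14, and 0.063% and 0.266% from P14 to P21. At an unadjusted p below 0.05, 8 members were higher and 1 lower from P4 to P8 (6.65% and 5.16% of all genes), 6 and 2 from P8 to P14 (6.24% and 7.12%), and 1 and 2 from P14 to P21 (2.48% and 4.54%). DESeq2 called Cox4i2, Cox6b2, Cox7a1 and Ndufs3 higher from P4 to P8 (2.45% of all genes) and Cox6b2 from P8 to P14 (2.96%), and limma-voom called Cox6b2 higher in each of the last 2 steps (2.7% and 0.294%). The median difference of the members was 0.10 from P4 to P8, -0.03 from P8 to P14 and -0.04 from P14 to P21. With total-count scaling the medians of these last steps were -0.18 and -0.14, beside -0.19 and -0.13 for all genes.

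Complex I has a peripheral arm that binds NADH and carries the iron-sulfur clusters, and a membrane arm that pumps protons. Among its core subunits, Ndufs1, Ndufs3 and Ndufs7 rose with day, with slopes of 0.038 ± 0.012, 0.052 ± 0.012 and 0.033 ± 0.009 log2 units per day (SE, adjusted p = 0.025, 0.0040 and 0.010, edgeR), and Ndufv1, Ndufv2 and Ndufs8 did not pass. Of the 50-base words of the Ndufs3 transcripts 39.7% occur in other genes, so its counts are uncertain.

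Ndufa9 and Ndufa10, accessory subunits of complex I, rose too. Ndufa9 measured 163, 148 and 137 CPM at P0, 254, 168 and 306 at P4, then 283, 324 and 350.3 at P8, 391, 401 and 357 at P14, and 226, 318 and 501 at P21. All later libraries lay above all P0 libraries, with a wide spread at P21, and the slope was 0.055 ± 0.015 (adjusted p = 0.0086, edgeR). Ndufa10 measured 225, 159 and 170.1 CPM at P0, 251, 324 and 262 at P4, then 266, 378 and 339 at P8, 507, 457 and 398 at P14, and 426, 348 and 448 at P21. The P0 libraries lay below all others, and the mean at P21 was 2.20-fold that at P0 (slope 0.054 ± 0.011, adjusted p = 0.0014, edgeR). Another 10 accessory subunits rose: Ndufa3, Ndufa5, Ndufa6, Ndufa11, Ndufa13, Ndufab1, Ndufb3, Ndufb10, Ndufc1 and Ndufs5. The member with the highest level per length, Ndufa1, at a mean of 1159 RPKM over all libraries, did not pass (slope 0.015 ± 0.010, adjusted p = 0.31, edgeR).

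One member of complex I fell. Ndufs6, an accessory subunit needed late in the assembly of the peripheral arm, measured 254, 235 and 335 CPM at P0 and 185, 212 and 153 at P21, with 208 to 289 at P4, 232 to 272 at P8 and 186 to 231 at P14. The P0 and P21 libraries did not overlap, and the slope was -0.030 ± 0.009 (adjusted p = 0.016, edgeR). The call was lost without P21 replicate 3, without the P0 libraries and with log2(day + 1) in place of day. Over the 15 libraries its mean correlation with the other members was -0.09, the second lowest after Ndufa4l2. Ndufs6b, a processed pseudogene, has a row of its own, and 8.33% of the 50-base words of the Ndufs6 transcripts occur in another gene.

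**Figure D3:**
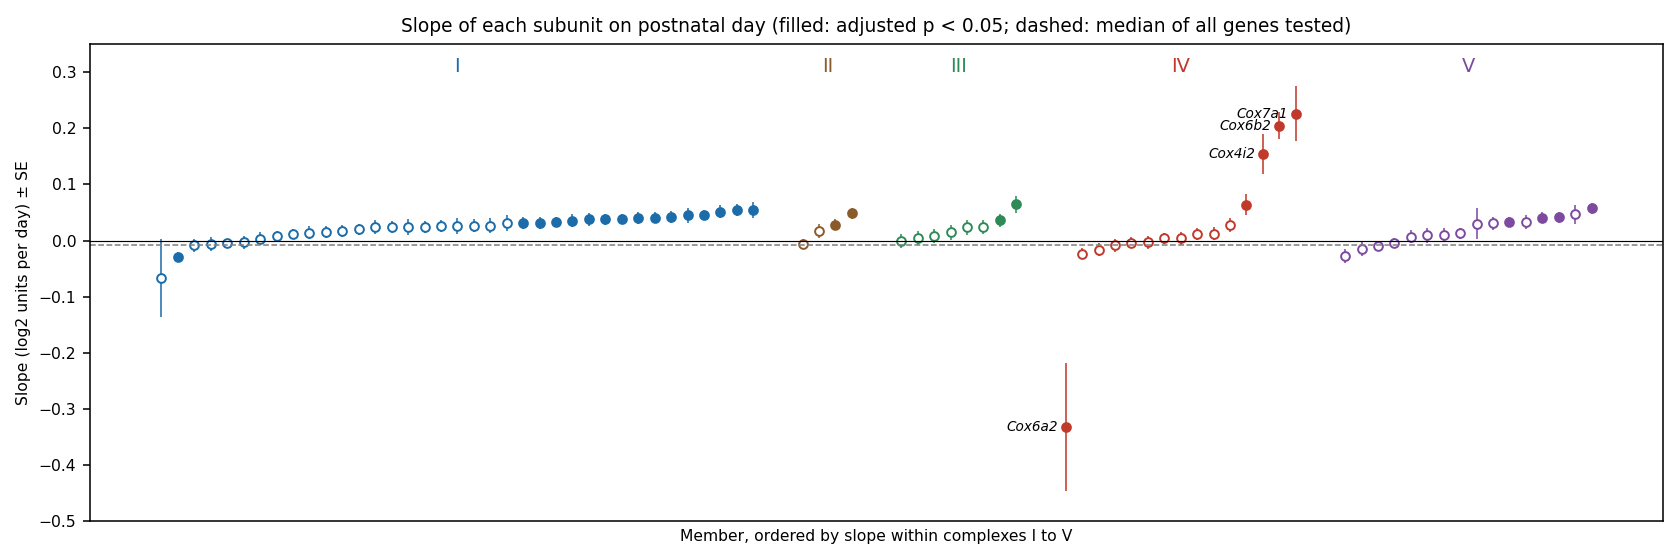
Slope on postnatal day in log2 units per day (y axis) of 80 of the 81 tested members, ordered by slope within complexes I to V (x axis), with bars of 1 SE. Filled points have an adjusted p below 0.05, the dashed line is the median of all genes tested (-0.0077), and only Cox7a1, Cox6b2, Cox4i2 and Cox6a2 lie beyond 0.1 in either direction.

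Complex II has only 4 subunits, all nuclear, and they did not move as one. Sdha, the flavoprotein that oxidizes succinate, measured 199.8, 241 and 321 CPM at P0, 257, 187 and 285 at P4, then 229.8, 273 and 292 at P8, 393, 412 and 382 at P14, and 341, 478 and 587 at P21. The first 3 time points overlapped, and every P14 and P21 library lay above them. The slope was 0.049 ± 0.010 (adjusted p = 0.0012, edgeR). Sdhc, a membrane anchor that carries the heme with Sdhd, rose from 177 ± 36.0 CPM at P0 to 248 ± 13.4 at P21. Its highest mean, 284 ± 40.6, lay at P14 (slope 0.028 ± 0.009, adjusted p = 0.031, edgeR). The Sdhc call was lost with total-count scaling, without the filter on low counts and without the P0 libraries. It was also lost without P0 replicate 1 or 3, P4 replicate 3, P8 replicate 1, P14 replicate 2 or P21 replicate 3. Sdhd did not pass for day (slope 0.017 ± 0.013, adjusted p = 0.35, edgeR) but changed when any pattern was tested (adjusted p = 0.018), with the step to P4 given above. Its mean over all libraries, 427 RPKM, was the highest of the complex. Sdhb, the iron-sulfur subunit, stood at 456 ± 12.6 CPM at P0, 580 ± 45.2 at P8 and 432 ± 52.6 at P21 and passed neither test (adjusted p = 0.65 and 0.19, edgeR), although with total-count scaling it was among the members that fell.

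In complex III, Uqcrfs1 went on from the step described above to 139 ± 11.0 CPM at P8, 163 ± 17.4 at P14 and 174 ± 54.3 at P21, which was 3.09-fold the P0 mean. Its slope was 0.064 ± 0.015 (adjusted p = 0.0031, edgeR). The gene lies at chr13:30540308-30545362 on the minus strand. Uqcrb, a small subunit beside the ubiquinone site, rose from 320 ± 14.9 CPM to 565 ± 156 (slope 0.036 ± 0.011, adjusted p = 0.022, edgeR), and 43.4% of its 50-base words occur in other genes, so its counts are uncertain. The core subunits Uqcrc1 and Uqcrc2 did not pass. Uqcr10, at 2419 RPKM the highest member of the complex and of the whole set, had a slope of 0.008 ± 0.013 (adjusted p = 0.69, edgeR). All 8 members of complex III had their lowest mean at P0.

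In complex V, 3 of the 5 subunits of the catalytic F1 head rose: Atp5a1 and Atp5b, the alpha and beta subunits, and Atp5d, the delta subunit of the stalk. Atp5c1 and Atp5e did not pass. Atp5a1 measured 699, 660.1 and 662 CPM at P0, 857, 1011 and 832 at P4, then 1088, 1293 and 1198 at P8, 1588, 1248 and 1306 at P14, and 1008, 1237 and 1363 at P21. The P0, P4 and P8 libraries did not overlap with each other, and the slope was 0.041 ± 0.010 (adjusted p = 0.0062, edgeR). Atp5d rose from 272 ± 34.7 CPM at P0 to 542 ± 103 at P14 and 479.5 ± 42.9 at P21 (slope 0.042 ± 0.010, adjusted p = 0.0038, edgeR).

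The steepest member of complex V was Atp5h, subunit d of the peripheral stalk that holds the head in place. It measured 243, 246 and 248 CPM at P0, 405, 473 and 305 at P4, then 387, 497 and 412 at P8, 511, 535 and 559 at P14, and 655, 699 and 532 at P21. No P0 library overlapped with a later one, and the mean at P21 was 2.56-fold that at P0 (slope 0.057 ± 0.009, adjusted p = 0.00014, edgeR). Of the 50-base words of its transcripts 47.9% occur in other genes, so its counts are uncertain. The other 3 members of the peripheral stalk did not pass. Atp5k, with 696 RPKM the highest of the complex, did not pass either (adjusted p = 0.42, edgeR).

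The c ring of complex V is built from one mature protein encoded by 3 genes, which differ in the part that directs it into mitochondria. Atp5g3 stood at 606 ± 184 CPM at P0 and 1115 ± 142 at P21 and Atp5g1 at 263 ± 32.8 and 593 ± 81.9. Neither passed for day (adjusted p = 0.052 for both, edgeR) and both changed when any pattern was tested (adjusted p = 0.027 and 0.0069). Both were called rising under RLE normalization, DESeq2, limma-voom, the replicate block and log2(day + 1). Neither was called with total-count scaling, without the filter on low counts or without the P0 libraries. Atp5g1 made up 16.7 ± 3.72% of the summed RPKM of the 3 genes at P0 and 19.1 ± 1.28% at P21. Atp5g2 was too low to be tested, with a mean of at most 0.584 CPM at any time point. Of its 50-base words, 14.8% also occur in other genes. Whether the counting of such reads sets this low value was not tested, and the share of Atp5g1 rests on it.

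The members of complex IV are given by isoform. Of its 10 broadly expressed nuclear subunits, 1 rose with day and none fell, with a median slope of 0.0038, where 12.1% of all genes rose. That one was Cox5a, a subunit on the matrix side of the enzyme, which measured 116, 206 and 194 CPM at P0 and 576, 409 and 258 at P21 (slope 0.064 ± 0.019, adjusted p = 0.016, edgeR). Its libraries overlapped between P0 and P4 and P8, and 32.0% of its 50-base words occur in other genes. Among the 7 isoforms known from particular tissues, 4 could be tested: Cox4i2, Cox6b2 and Cox7a1 rose, Cox6a2 fell, and these 4 had the largest slopes in size of all 81 members. The median slope of the 3 that rose and the 1 that fell was 0.18.

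Cox6b2, described as the testis form of subunit VIb, lies at chr7:4751792-4753094 on the minus strand. It measured 21.5, 22.6 and 11.3 CPM at P0, 2.45, 11.6 and 18.7 at P4, then 29.4, 37.0 and 53.0 at P8, 127, 116 and 117 at P14, and 259.7, 256 and 233 at P21. From P4 on no time point overlapped with the next, and the mean at P21 was 13.5-fold that at P0 (slope 0.205 ± 0.024, adjusted p = 3.9e-06, edgeR). Its broadly expressed partner Cox6b1 stood at 636 ± 85.6 CPM at P0 and 691 ± 95.7 at P21 and did not pass (slope -0.004 ± 0.009, adjusted p = 0.82, edgeR). The share of Cox6b2 in the summed RPKM of the pair, which does not depend on the scaling of the library, was 1.84 ± 0.65% at P0, 0.83 ± 0.71% at P4, then 3.33 ± 1.04% at P8, 10.02 ± 1.34% at P14 and 18.9 ± 1.48% at P21.

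Cox7a1, the heart and muscle form of subunit VIIa, lies at chr7:30184144-30186078 on the plus strand. It measured 4.23, 0 and 2.63 CPM at P0, 0.736, 5.05 and 3.08 at P4, then 9.47, 30.5 and 13.9 at P8, 35.9, 43.3 and 43.2 at P14, and 44.1, 56.1 and 24.0 at P21. P0 and P4 overlapped, P8 lay above both, and P14 lay above P8. The mean at P21 was 18.1-fold that at P0 (slope 0.225 ± 0.049, adjusted p = 0.0018, edgeR). Cox7a2, the liver and general form, stood at 489 ± 34.0 CPM at P0 and 639 ± 140 at P21 (slope 0.012 ± 0.010, adjusted p = 0.45, edgeR), and the share of Cox7a1 in the pair went from 0.78 ± 0.72% at P0 to 10.3 ± 1.10% at P14 and 9.97 ± 1.80% at P21. Cox7a2l, a relative that links complexes III and IV into supercomplexes, did not pass (slope -0.016 ± 0.012, adjusted p = 0.35, edgeR).

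Cox4i2, known from lung and from oxygen-sensing cells, lies at chr2:152754173-152765037 on the plus strand. It measured 3.46, 9.13 and 7.90 CPM at P0, 0, 6.86 and 5.31 at P4, then 20.4, 13.0 and 22.8 at P8, 26.5, 29.7 and 37.4 at P14, and 55.4, 42.4 and 43.4 at P21. From P4 on no time point overlapped with the next (slope 0.154 ± 0.036, adjusted p = 0.0034, edgeR). Its partner Cox4i1 measured 1616, 1618 and 1562 CPM at P0, 2160.3, 3043 and 2031 at P4, then 1558, 1749.8 and 1959 at P8, 1605, 1615 and 1396 at P14, and 1293, 1378 and 1529 at P21. Cox4i1 was thus highest at P4 and changed when any pattern was tested (adjusted p = 0.0093, edgeR), but not with day (slope -0.023 ± 0.010, adjusted p = 0.10). With total-count scaling, and without the P0 libraries, it was among the members that fell. The share of Cox4i2 in the pair was 0.83 ± 0.36% at P0, 0.32 ± 0.28% at P4, then 2.06 ± 0.56% at P8, 3.88 ± 0.99% at P14 and 6.25 ± 1.33% at P21.

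Cox4i2 and Ndufa4l2 are also known from pericytes, the cells that wrap capillaries, so the markers of these cells are given beside them. The 6 pericyte markers summed to 113 ± 39.8 CPM at P0, 149 ± 72.5 at P4, then 148 ± 44.4 at P8, 59.2 ± 9.03 at P14 and 35.7 ± 24.0 at P21. Their part in the level of Cox4i2 was not tested. Rgs5 (slope -0.098 ± 0.031, adjusted p = 0.023), Abcc9 (-0.183 ± 0.056, 0.021) and Anpep (-0.482 ± 0.144, 0.018) fell by edgeR's test. Pdgfrb, Kcnj8 and Cspg4 did not pass, with slopes of 0.013, -0.186 and -0.193. Anpep was above 0 only in P0 replicate 1 (2.50 CPM) and in P4 replicates 1 and 2 (15.7 and 2.46 CPM). Its slope thus rests on few counts. Ndufa4l2 stood at 7.60 ± 4.33 CPM at P0 and 1.42 ± 2.11 at P21 and was at 0 in P4 replicate 2 and P21 replicate 1 (slope -0.067 ± 0.069, adjusted p = 0.53, edgeR). Ndufa4, its broadly expressed relative, which is now counted with complex IV, went from 747 ± 167 CPM at P0 to 1341 ± 407 at P4 and 1354 ± 309 at P21 and changed in any pattern (adjusted p = 0.045) but not with day (adjusted p = 0.15, edgeR).

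Cox6a2, the heart and muscle form of subunit VIa at chr7:128205435-128206387 on the minus strand, had a course of its own. It measured 0, 4.17 and 0 CPM at P0, 61.8, 48.0 and 31.4 at P4, then 21.6, 25.4 and 14.5 at P8, 1.47, 4.79 and 1.73 at P14, and 0, 0 and 0.480 at P21. The P4 and P8 libraries all lay above those of the other time points, with P4 above P8. Tested for any pattern it changed (adjusted p = 0.0028, edgeR). The trend on day was negative (slope -0.332 ± 0.114, adjusted p = 0.038), but a straight line describes this rise and fall poorly, and the call was lost under limma-voom, under the replicate block and with log2(day + 1) in place of day and without any one of 8 libraries (the 3 of P4, the 3 of P21 and P14 replicates 1 and 3). Its share in the summed RPKM with Cox6a1 was at most 2.47 ± 0.71%, at P4. Cox6a1, with 2145 RPKM the highest member of complex IV, stood at 1218 ± 164 CPM at P0, 1942 ± 513 at P4 and 1478 ± 169.9 at P21 (adjusted p for day = 0.87, edgeR).

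The remaining isoform genes were near the limit of detection. Cox7b2, known from testis, had no count at P0 and P4 and a mean of 1.59 ± 2.48 CPM at P21, while Cox7b stood at 514 ± 67.1 CPM at P0 and 897 ± 219 at P21 (slope 0.028 ± 0.012, adjusted p = 0.10, edgeR). Cox8c had no count in any library, which allows a level of up to 3 counts or 0.384 to 0.880 CPM of the library total, and Cox8b had 1 count in all. Cox8a, the broadly expressed form, stood at 591 ± 176 CPM at P0 and 839 ± 167 at P21 (slope 0.012 ± 0.011, adjusted p = 0.49, edgeR). Among the isoforms with enough counts for the edgeR test, those that rose in the PC libraries were therefore of subunits IV, VIb and VIIa. Those of VIIb and VIII were not detectably present at this depth or nearly so. Cox7b2 was nonetheless called rising by DESeq2, and by edgeR without the filter on low counts.

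**Figure D4:**
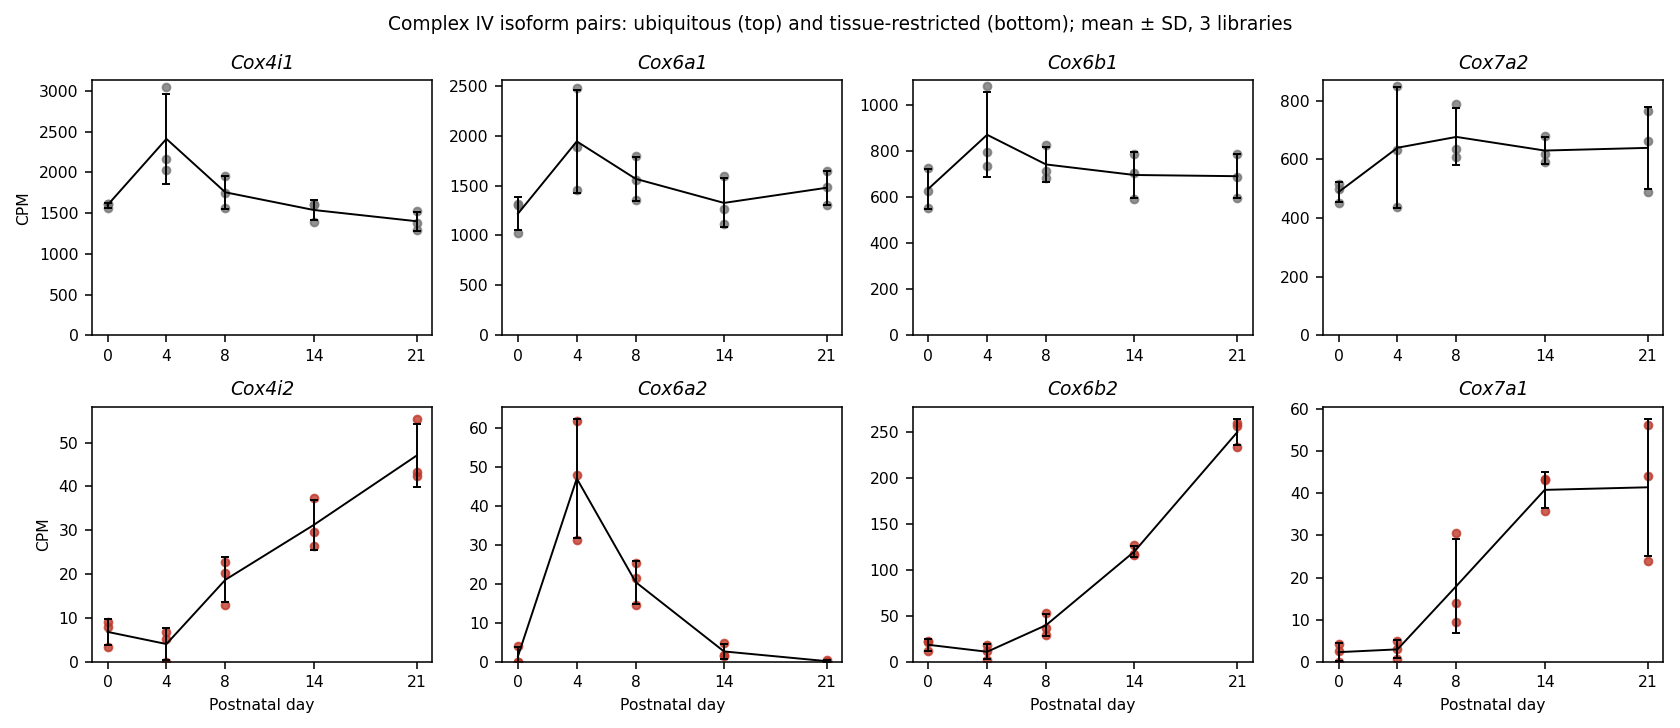
CPM (y axes, each from 0) of 4 pairs of complex IV isoforms against postnatal day (x axes), with one point per library, lines through the means and bars of 1 SD (n = 3). The broadly expressed forms in the top row stay between 439 and 3043 CPM, Cox4i2, Cox6b2 and Cox7a1 climb from P8 on, to means of 47.1, 249.8 and 41.4 CPM at P21, and Cox6a2 peaks at P4 with 47.1 CPM.

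The broadly expressed form did not pass for day and the other rose in the Cox4i, Cox6b and Cox7a pairs, and the promoters of the last 2 pairs are shown to set their base composition side by side. The sequences are from RefSeq on GRCm38.p6, run 5′ to 3′ on the gene's strand from 250 bases before to 50 after the start of transcription, and have in capitals any match to the motifs named below.
Cox6b1 (chr7:30626065-30626364, minus strand): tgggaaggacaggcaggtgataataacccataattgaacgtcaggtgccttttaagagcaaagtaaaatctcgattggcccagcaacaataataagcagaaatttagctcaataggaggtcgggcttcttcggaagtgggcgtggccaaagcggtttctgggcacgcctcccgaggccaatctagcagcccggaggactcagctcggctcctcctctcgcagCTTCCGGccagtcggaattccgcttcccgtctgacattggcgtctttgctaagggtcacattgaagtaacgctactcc
Cox6b2 (chr7:4753045-4753344, minus strand): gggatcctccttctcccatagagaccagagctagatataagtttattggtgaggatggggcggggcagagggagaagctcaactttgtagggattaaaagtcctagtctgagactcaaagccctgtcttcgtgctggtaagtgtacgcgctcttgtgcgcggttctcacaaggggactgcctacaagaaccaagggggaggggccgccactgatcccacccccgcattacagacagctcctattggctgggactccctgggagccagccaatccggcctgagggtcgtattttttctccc
Cox7a2 (chr9:79759804-79760103, minus strand): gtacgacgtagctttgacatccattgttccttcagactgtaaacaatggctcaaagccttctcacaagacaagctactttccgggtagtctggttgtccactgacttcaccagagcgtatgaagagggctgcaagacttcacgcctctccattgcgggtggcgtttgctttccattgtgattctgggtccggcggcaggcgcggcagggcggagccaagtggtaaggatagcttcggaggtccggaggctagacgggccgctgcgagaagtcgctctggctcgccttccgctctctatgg
Cox7a1 (chr7:30183921-30184220, plus strand): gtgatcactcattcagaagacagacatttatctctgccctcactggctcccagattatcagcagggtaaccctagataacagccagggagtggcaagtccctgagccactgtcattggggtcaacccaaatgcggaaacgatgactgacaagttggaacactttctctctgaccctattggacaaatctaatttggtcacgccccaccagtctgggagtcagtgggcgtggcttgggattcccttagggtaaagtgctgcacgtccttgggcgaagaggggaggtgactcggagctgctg
Cox6b1 holds 17 CpG dinucleotides and Cox7a2 20, whereas Cox6b2 holds 10 and Cox7a1 7. The median of the members was 19 and that of all 32851 promoters 7.

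Promoters were matched for 67 of the 85 members, with 72 windows. Background knowledge names NRF1, GABPA (NRF2), ESRRA and YY1 as regulators of respiratory chain genes, so the letters CGCATGCG (for NRF1), those of CCGGAAG (for GABPA), those of AAGGTCA (for ESRRA) and those of AAGATGGC (for YY1) were searched on both strands, and no motif contains another. The NRF1 letters were in 12.5% of the members' windows against 1.87% of all, those of GABPA in 22.2% against 8.86%, those of ESRRA in 11.1% against 4.72% and those of YY1 in 12.5% against 2.75%. The windows of members also held more G and C, with a median of 57.3% against 52.7%, and the part of base composition in these shares was not tested. Of 24 windows of rising members, 1 held the letters of NRF1, 2 those of GABPA, 1 those of ESRRA and 4 those of YY1. A match is a run of letters and says nothing of binding in PCs. Uqcr11 (complex III) is shown as an example that holds the letters of both NRF1 and GABPA. Both were also found for Atp5j, Atp5k, Atp5l and Cox6a1. Atp5h is shown because it is the rising member of complex V with a match.
Uqcr11 (chr10:80406772-80407071, minus strand): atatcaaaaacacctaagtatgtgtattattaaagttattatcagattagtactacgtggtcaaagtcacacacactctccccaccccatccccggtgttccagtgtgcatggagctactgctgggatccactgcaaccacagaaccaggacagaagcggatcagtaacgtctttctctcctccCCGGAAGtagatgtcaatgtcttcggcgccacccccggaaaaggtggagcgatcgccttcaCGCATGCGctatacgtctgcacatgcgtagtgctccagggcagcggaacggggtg
Atp5h (chr11:115419870-115420169, minus strand): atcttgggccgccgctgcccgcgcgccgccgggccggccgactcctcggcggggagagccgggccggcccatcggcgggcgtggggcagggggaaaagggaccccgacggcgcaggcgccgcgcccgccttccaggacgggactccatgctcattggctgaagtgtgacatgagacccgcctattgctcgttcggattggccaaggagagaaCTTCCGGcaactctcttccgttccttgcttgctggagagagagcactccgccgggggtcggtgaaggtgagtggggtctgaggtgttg
Uqcr11 did not pass for day, and Atp5h carries the GABPA match on the opposite strand, as does Cox6b1.

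The subunits that mitochondrial DNA encodes make up the cores of complexes I, III, IV and V. Of these 13 genes, 11 were tested, none rose or fell with day, and 3 changed in any pattern (mt-Nd1, mt-Nd5 and mt-Co1). Over all genes 12.1% rose, 14.1% fell and 19.3% changed in any pattern. With only 11 genes, these counts do not set the group apart from all genes. Their summed level was 26103 ± 2415 CPM at P0, 36682 ± 12113 at P4, then 33048 ± 4250.2 at P8, 21885 ± 1417 at P14 and 29929 ± 6585 at P21. All 11 had a positive difference from P0 to P4, with a median of 0.52, and mt-Co1, the catalytic core of complex IV, was called (0.65, adjusted p = 0.035, edgeR). From P8 to P14 all 11 differences were negative, with a median of -0.65, where the median of the nuclear-encoded members was -0.03, and from P14 to P21 all 11 were positive (median 0.44), with none called in either step. The mean levels of mt-Co2, mt-Co3 and mt-Atp6 were only 2.26, 6.51 and 3.25 CPM, against 5200 for mt-Co1 and 7825 for mt-Cytb, so their differences rest on few counts. Whether the counting of reads sets these low values was not tested, and the summed level depends on it. The 13 genes sit on one molecule and their counts are not independent. The medians of both groups of genes were close from P0 to P4 and apart from P8 to P14, and the difference between the groups was not tested.

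**Figure D5:**
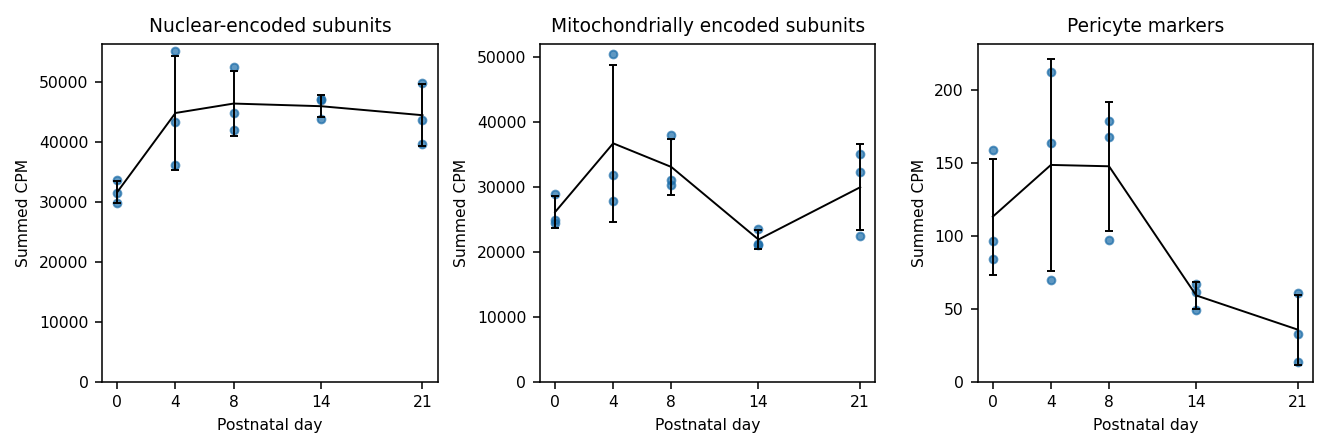
Summed CPM (y axes, from 0) against postnatal day (x axes) of the 85 nuclear-encoded subunits, the 13 mitochondrially encoded subunits and the 6 pericyte markers, one point per library with means and bars of 1 SD (n = 3). The nuclear-encoded sum stays near its P4 level up to P21, whereas the mitochondrially encoded sum is 21885 CPM at P14, below its P0 mean of 26103.

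Other genes of the pathway were counted beside the subunits. Of 44 tested assembly factors, the proteins that build the complexes, 7 rose and none fell, near the 12.1% of all genes that rose, with a median slope of 0.020. Tmem70, needed for ATP synthase assembly, had the steepest slope (0.119 ± 0.023, adjusted p = 0.00078, edgeR), and went from 26.2 ± 12.5 CPM at P0 to 157 ± 36.2 at P14. Of 13 citric acid cycle enzymes 5 rose and none fell (median 0.033, beside the same 12.1%), led by Idh3b, a subunit of isocitrate dehydrogenase (0.080 ± 0.011, adjusted p = 3.1e-05, edgeR). Cycs, the electron carrier cytochrome c, rose (0.039 ± 0.012, adjusted p = 0.022, edgeR), and Cyc1, the heme protein of complex III, did not pass (adjusted p = 0.27). Of 12 regulators of mitochondrial biogenesis only Esrra, a nuclear receptor, passed (0.111 ± 0.026, adjusted p = 0.0031, edgeR), from 8.05 ± 4.65 CPM at P0 to 40.2 ± 18.0 at P21. That 1 of 12 is near the 12.1% of all genes that rose. Ppargc1a, the coactivator PGC-1alpha, did not pass (0.011 ± 0.019, adjusted p = 0.72, edgeR).

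Across the 15 libraries the members of a complex varied together, as a description without a test, since they share library, depth and age. The mean correlation of log2 levels within complexes was 0.51 for complex I, 0.29 for complex II, 0.56 for complex III, 0.35 for complex IV and 0.54 for complex V, and with members of other complexes 0.47, 0.32, 0.52, 0.40 and 0.50 in the same order. Members of complexes II and IV thus correlated no better with their own complex than with the others. Ndufa4 had the highest mean correlation with the other members (0.65), and Ndufa4l2 (-0.35), Ndufs6 (-0.09), Ndufv1 (0.02), Cox4i1 (0.12) and Sdha (0.17) the lowest.

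Many subunit genes have processed copies in the genome, which bears on how far single values can be trusted. For 27 of the 85 members more than 10% of the 50-base words of their transcripts occur in transcripts of another gene, led by Atp5l (84.8%), Atp5o (50.3%), Atp5h (47.9%) and Uqcrb (43.4%). Reads there could be lost or split. The words were searched on both strands and in all other genes, so a shared word need not come from a processed copy. Exons overlap another gene on the opposite strand over 39.0% of the bases of Ndufb6, 35.6% of Atp5o and 30.0% of Ndufa13. Counts of these genes, which are also among the 27, are uncertain too. Cox4i2, Cox6b2, Cox7a1, Ndufa10, Ndufs8, Sdha, Sdhd and Uqcrfs1 shared no such word with another gene.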

How the data were processed

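PC RNA from 15 libraries was analysed as whole-number counts per Ensembl gene. The authors trimmed adapters with cutadapt 1.2.1, aligned reads to GRCm38/mm10 with GSNAP (version 2012-07-20) and made the deposited counts with HTSeq 0.5.3p9 from uniquely mapped reads, in intersection-strict mode and without normalization (per the labels and the methods). The annotation release and the strand setting are not given in the sources used here. Tally rows were kept apart. Symbols, positions and exon lengths came from GENCODE M21, in which 1 further gene that meets the rule, a second entry named Atp5o, has no row in the count files.

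Counts were tested with edgeR 4.0.16 in R 4.3.3 (TMM, filterByExpr by time point, quasi-likelihood F test, Benjamini-Hochberg over 14293 genes at 0.05), with day as a number, with the time point as a factor and between neighbouring time points. The common biological coefficient of variation was 0.705. The procedure was tested on simulated data. Alternatives were DESeq2 1.42.0, limma-voom (limma 3.58.1), other scalings, no filter, a replicate block, log2(day + 1), Ndufa4 and Ndufa4l2 placed in complex IV, the series without P0, and each library left out. Values at 0 lie below 3 counts, which covers counting error only.

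The members and lists were chosen with earlier results of these data known. Named members are, per complex, the 3 called members with the largest slope in each direction, the one with the highest mean RPKM, the Sdh genes and the isoforms of one subunit, beside the steepest called genes of the other lists and every pericyte marker. Members called in a step, or named for a shared pattern or correlation, were chosen after their values were seen. 1 member of complex I is not reported here.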

Additional observations from a re-analysis of the deposited data

Results flagged for a closer look

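Rows outside the comparisons also held counts. The 11 processed pseudogenes whose symbols begin like those of the members were left out because they are not protein-coding, and each had more counts over the 15 libraries than the 3 that a count of 0 allows. The totals were 914 for Ndufs6b, 859 for Cox6c2, 381 for Ndufab1-ps, 358 for Ndufa11b, 320 for Atp5k-ps2, 272 for Uqcrh-ps1, 127 for Atp5l-ps1, 92 for Uqcrh-ps2, 42 for Atp5l-ps2, 17 for Atp5l2-ps and 4 for Ndufb4c. Whether these reads come from the pseudogenes or from the members they resemble was not tested.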

How the results depend on the processing

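The biggest shifts came with scaling and with P0. Total-count scaling gave 10 members rising and 7 falling with day (rising 4, 1, 1 and 1 in complexes I, II, III and V, falling 1, 3 and 2 in II, IV and V) and 0 higher from P0 to P4. The rest of these were Cox4i2, Cox6b2 and Cox7a1 rising in complex IV and Ndufs6 falling in complex I. Without P0, 7 rose and 5 fell (rising 2, 1, 0 and 1 in complexes I, II, III and V, falling 3 in IV and 1 in V), and 6 changed in any pattern. The rest of those called without P0 were Cox4i2, Cox6b2 and Cox7a1 rising in complex IV and Ndufb9 falling in complex I. From P0 to P4, RLE normalization called 1, DESeq2 15 and limma-voom 7. DESeq2 called 4 higher from P4 to P8 and 1 from P8 to P14. limma-voom called 1 higher from P8 to P14 and 1 from P14 to P21, had 1 member falling with day, 0 of them in complex IV, and 7 rising in complex V. With log2(day + 1), 42 members rose, 0 fell in all, 0 each in complexes I and IV, and 7 rose in complex V. Without the filter, 1 rose in complex II and 1 member was higher in each of the steps P4 to P8 and P8 to P14. The cause of these shifts was not tested. Where no share of all genes is given for a setting or a fit, it was not counted. Such numbers describe how the calls depend on the processing and are not results about the members. Of the 28 rising calls, 20 held in all 15 fits that left out 1 library, and of the 2 falling calls 0.

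Leaving out 1 library at a time, members rising ranged from 21 to 35, falling from 0 to 3, and changing in any pattern from 22 to 43. Rising ranged from 11 to 19 in complex I, 1 to 2 in II, 1 to 2 in III, 3 to 5 in IV and 4 to 7 in V, where 7 was reached without P4 replicate 2, P8 replicate 2 or P21 replicate 3. Falling ranged from 0 to 1 in complex I, 0 to 2 in IV and 0 to 1 in V. Members higher from P0 to P4 ranged from 0 to 10, and those higher from P4 to P8 and from P8 to P14 from 0 to 1.

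The replicate numbers do not pair the libraries: same-numbered libraries correlated at a mean of -0.0033 (-0.032 to 0.047) against 0.0017 for different numbers, and 7 of 15 were closest to their own number. With the replicate block 30 members rose, 1 fell, 0 of complex IV fell, and 5 were higher from P0 to P4.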
